A study of Arabidopsis thaliana with 4 samples.

Results

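Transcript levels were compared between Arabidopsis thaliana seedlings that stood for 30 min in the vapour of 3-hepten-2-one, an α,β-unsaturated ketone, and seedlings that received only its solvent, acetonitrile. The comparison took every gene whose probe was well above background on both arrays, which was 19299 of the 25418 genes with a matched probe, and used 2 of the 4 arrays of the series, 1 per group. The other 2 arrays of the series were from seedlings exposed to (E)-2-pentenal and to crotonaldehyde, both unsaturated aldehydes. All plants were wild type of the Columbia-0 ecotype, raised on peat pellets, first for 3 days in the dark at 4 °C and then at 23 °C in a daily cycle of 14 h light and 10 h dark. During exposure they stood at 25 °C in the light in a closed transparent box of 340 cm3, and the treated box held 3 µl of a 1 M solution of the ketone in acetonitrile. All of it in the air would make 8.82 µM, beside a nominal 10 µM. Box, light, temperature, time and acetonitrile were common to both groups, and each RNA sample was a pool of at least 6 plants. The age of the plants and the hour of harvest are not given in the sources used here.

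α,β-Unsaturated carbonyls are electrophiles: their activated double bond reacts with thiols, above all with the cysteines of proteins and of glutathione. Plants make such compounds from oxidised fatty acids in wounded or heated leaves. Cells dispose of them by coupling them to glutathione, by reducing the double bond or the carbonyl group, and by glycosylating and exporting the products, while damaged proteins call on heat shock chaperones.

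Values below are scaled signals, the processed signal of the array after both arrays were brought to the same 75th percentile, which was 1667 for acetonitrile and 1531 for 3-hepten-2-one before scaling. With 1 array per group there was no replicate and no test, so a gene is called higher or lower when its scaled signals differed at least 2-fold, and the call describes these arrays only. Both arrays lay on the same slide and were scanned together, 72.9% and 74.4% of their spots were well above background, and none was saturated. The 19 probes spotted repeatedly gave a pooled SD of 0.135 for the log2 difference. The error deposited with the signals was larger, with a median of 0.2 and a 95th percentile of 0.26 for the log2 difference. Calls just past 2-fold are therefore uncertain. Of the 5923 genes with several measured probes 1.91% had probes over 1 apart on the log2 scale. The lowest signals well above background were 15.8 in acetonitrile and 13.9 after scaling in 3-hepten-2-one, and folds with a side near them are imprecise. All 5 markers of green shoot were well above background on both arrays, with a summed scaled signal of 2252441 in acetonitrile and 2570673 after 3-hepten-2-one. Of 6 root markers 4 were measured, with sums of 30005 and 52668 that came almost wholly from PYK10 (29695 and 52413). PYK10 was the 1 measured root marker above its control. The other 3 lay below theirs, 1 of them past 2-fold, with a lowest log2 difference of -1.08. The median of the 4 was -0.16, and PHT1;1 and IRT1 were not well above background on either array. Of 5 flower markers SEP3 stood at 64.4 and 50.2 and PI at 106.0 and 33.7, AP1 and AP3 were seen in acetonitrile only, at 100.5 and 38.2, and AG after the ketone only, at 74.6. Of 4 seed markers EM1 was measured on both arrays, at 50.5 and 33.0, CRU3 was seen after the ketone only, at 23.0, and OLEO1 and AT2S3 on neither. The part of tissue makeup in the results below was not tested, and in bulk seedlings fewer cells of a type and less RNA per cell cannot be told apart.

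Exposure to 3-hepten-2-one went with 1256 genes at least 2-fold higher (6.51% of the 19299) and 931 at least 2-fold lower (4.82%). At 4-fold the numbers were 412 higher and 168 lower, at 8-fold 172 and 44, and at 32-fold 36 and 4, so the large differences were mostly on the higher side. Most genes differed little: 75.1% lay within 1.5-fold of the acetonitrile level, and the median log2 difference was -0.07. Of the genes past 2-fold 57.4% were higher. In the authors' processed values, which carry another constant per array, 1069 genes were higher and 1230 lower, or 46.5% higher, and the median of all genes there was -0.19, a shift of -0.12 that applies to every gene. A further 601 genes were well above background after the ketone only and 276 in acetonitrile only, and for 239 and 127 of these the bound on the fold was at least 2.

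**Figure D1:**
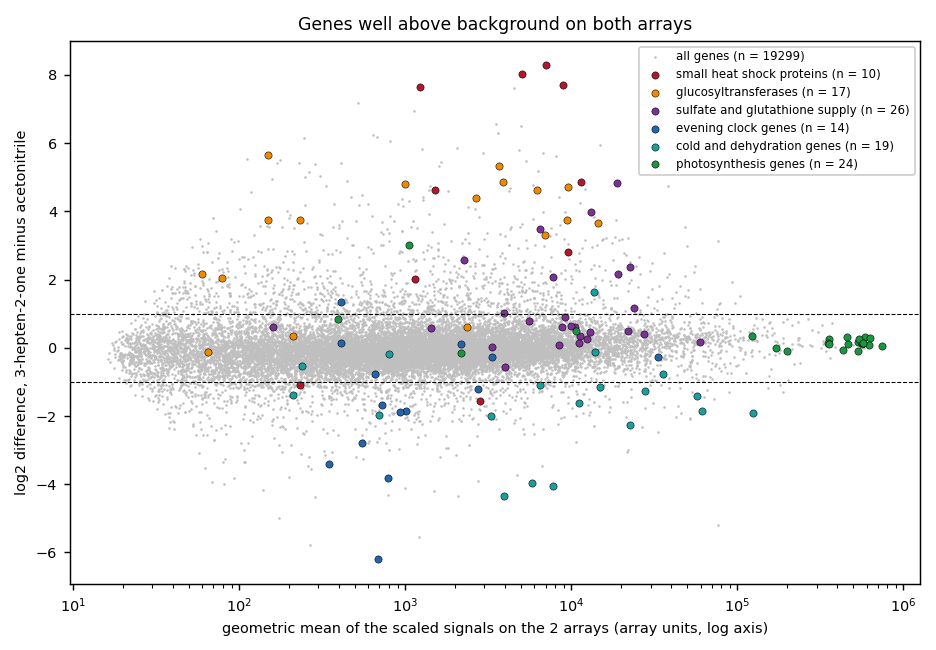
Log2 difference (3-hepten-2-one minus acetonitrile) of each of the 19299 genes against the geometric mean of its scaled signals on both arrays (log axis), with 6 gene lists coloured and dashed lines at 2-fold. The main cloud lies between the lines, small heat shock proteins and glucosyltransferases reach log2 differences of 8.28 and 5.64, and evening clock genes and cold genes reach -6.19 and -4.35.

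Genes of electrophile detoxification were among the higher ones, beginning with the tau class of glutathione S-transferases, enzymes that join glutathione to electrophiles. Of 28 listed members 21 were measured on both arrays, and 10 of these were higher and none lower, against 6.51% and 4.82% of all genes. Each list count below is to be read beside these 2 shares. The lists were chosen with earlier results of these data known, so their counts and medians are not independent of the values they describe. GSTU24, known for its induction by xenobiotics, had a scaled signal of 271.4 in acetonitrile and 7234 after 3-hepten-2-one, 26.7-fold higher. GSTU7 stood at 2312 and 36717 (15.9-fold higher). GSTU1 stood at 359.8 and 5440 (15.1-fold higher). GSTU19 was 2.88-fold higher, at 60781 and 175309, so the size of the difference varied widely within the class. GSTU25 was not well above background in acetonitrile and reached 599.1, at least 33.9-fold higher, and GSTU2 reached 342.4, at least 20.2-fold higher. GSTU3 and GSTU22 were likewise seen after the ketone only, at least 3.52-fold and 2.39-fold higher, GSTU14 and GSTU15 were not well above background on either array, and GSTU21 had no matched probe. The median of the 21 was 0.91 on the log2 scale. Neighbouring members did not move as 1 block: on chromosome 2, GSTU1, GSTU4, GSTU5 and GSTU7 were higher, while GSTU6 stood at 1864 and 2968, within 2-fold. Close relatives in this family can share probe signal.

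The phi class of the same enzymes was split. Of 13 measured members 4 were higher and 2 lower, with a median of 0.33. GSTF8, a stress-inducible member, stood at 11635 and 43128 (3.71-fold higher), and GSTF12, which serves anthocyanin deposition in the vacuole, at 2059 and 4885 (2.37-fold higher). The 2 probes of GSTF12 had log2 differences of 0.76 and 1.25, so its call depends on the probe. GSTF2 went from 21346 in the control to 7609 after the ketone, 2.81-fold lower, and its near copy GSTF3 stood at 1475 and 526.7 (2.80-fold lower). GSTF2 had 4 measured probes, with log2 differences of -1.49 to -1.34. Members past 2-fold thus lay on both sides of the control in the phi class. In the tau class those past 2-fold were all higher, and the lowest measured member, GSTU27, stood at 3525 and 1925 (-0.87 on the log2 scale).

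Sulfate assimilation feeds cysteine, and through it glutathione. Of 26 measured members of that list 9 were higher and none lower, with a median of 0.61. SERAT2;1, the plastid serine acetyltransferase that makes the carbon skeleton of cysteine, had scaled signals of 3544 and 101540, 28.7-fold higher. APR3, an adenosine phosphosulfate reductase at the key reducing step, stood at 3290 and 51943 (15.8-fold higher), and APR1 at 9057 and 40650 (4.49-fold higher). The differences along the route were uneven: APR2 stood at 6697 and 12622 and the next enzyme, sulfite reductase SIR, at 8601 and 13014, both within 2-fold. LSU1 and LSU2, small proteins of the low-sulfur response, were 11.1-fold and 5.14-fold higher. SDI1, another gene of sulfur shortage, stood at 3784 and 15912 (4.21-fold higher), and GGCT2;1, which breaks glutathione down in the cytosol, at 919.1 and 5509 (5.99-fold higher). The enzymes of glutathione synthesis itself lay within 2-fold: GSH1 at 23908 and 31733, GSH2 at 8220 and 8657. The glutathione reductases GR1 and GR2 stood at 7094 and 10867 and at 4236 and 7263. SULTR1;1, a root sulfate importer, was not well above background on either array.

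Reduction of the reactive bond was the second route with higher transcripts. Of 15 measured carbonyl reductases 7 were higher and none lower, with a median of 0.80. AER (AT5G16970), the alkenal reductase that saturates the double bond of reactive carbonyls, had scaled signals of 1280 and 14375, 11.2-fold higher. Its neighbours AT5G16980 and AT5G17000 were 18.8-fold and 7.94-fold higher, and AT5G16960 went from below the detection flag to 774.6, at least 49.0-fold higher. AT5G16990, which lies between them, stood at 4217 and 6919, within 2-fold, so the cluster was not uniform. OPR1 and OPR2, oxophytodienoate reductases that also accept other unsaturated carbonyls, stood at 26111 and 226278 (8.67-fold higher) and at 594.8 and 3658 (6.15-fold higher). OPR3, the isoform of jasmonate synthesis, stood at 87994 and 122566, within 2-fold. AKR4C9, an aldo-keto reductase, was 5.07-fold higher at 107.8 and 547.3, while its relatives AKR4C8, AKR4C10 and AKR4C11 had log2 differences of 0.14, 0.16 and -0.06. AOR, the chloroplast reductase known to act on alkenones, stood at 27745 and 48394, and the chloroplast quinone oxidoreductase homologue CEQORH at 11831 and 14034, both within 2-fold.

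Oxidation of the carbonyl carbon did not show such a group. Of 16 measured aldehyde dehydrogenases 1 was higher and 1 lower, with a median of -0.01. P5CS1, which carries an aldehyde dehydrogenase fold and makes proline, was 2.34-fold higher at 1446 and 3378. ALDH5F1, the mitochondrial succinic semialdehyde dehydrogenase, was 7.17-fold lower, at 6479 and 903.5. ALDH3H1 and ALDH7B4, known for their response to stress, stood at 2979 and 2979 and at 6041 and 6230.

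Cytochromes P450 of the CYP81D family, markers of the response to xenobiotics, were led by CYP81D11, which stood at 405.2 and 32059 (79.1-fold higher). CYP81D8 followed at 230.9 and 2592 (11.2-fold higher). Of 5 measured members these 2 were higher and none lower. The family list had a median of 0.25, and CYP81D4 and CYP81D1 stood at 3121 and 3708 and at 3879 and 4477, within 2-fold. CYP81D2 was at least 3.06-fold higher, and CYP81D3, CYP81D6 and CYP81D7 were not well above background on either array.

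Glucosyltransferases (UGTs), which attach glucose to hormones, defence compounds and xenobiotics, had the highest median of the detoxification lists, 3.75 on the log2 scale. Of 17 measured members 14 were higher and none lower. UGT73B5 had scaled signals of 579.0 and 23113, 39.9-fold higher, and its neighbour UGT73B4 21.1 and 1057, a log2 difference of 5.64 that rests on a control signal near the detection limit. UGT73B3, UGT73B2 and UGT73B1, which lie side by side on chromosome 4, were 26.1-fold, 27.6-fold and 13.4-fold higher. UGT73C4, UGT73C3, UGT73C6 and UGT73C5, adjacent on chromosome 2, had log2 differences of 3.75, 4.40, 2.06 and 4.62. All measured genes of both clusters were thus higher. UGT73C1, near the second cluster, was at least 22.1-fold higher. UGT73C2, which lies between UGT73C1 and UGT73C4 by locus number, was not well above background on either array, at 3.23 and 6.04. UGT73C5, which glucosylates brassinosteroids and the toxin deoxynivalenol, had 2 probes at 4.62 and 6.03. UGT74E2, which glucosylates the auxin indole-3-butyric acid, stood at 717.2 and 20996 (29.3-fold higher), and UGT75B1 at 4071 and 51242 (12.6-fold higher). The members within 2-fold were UGT74F2 and UGT74F1, both of which act on salicylic acid, and UGT73C7, with log2 differences of 0.60, 0.36 and -0.12. Family members are alike in sequence, so part of a probe's signal may come from a neighbour.

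Of 11 measured ABC and MATE exporters 3 were higher and none lower, with a median of 0.56. ABCG40, a plasma membrane transporter, stood at 57.9 and 1061 (18.3-fold higher). ABCC2, which carries glutathione conjugates into the vacuole, stood at 2277 and 8659 (3.80-fold higher), and its relative ABCC1 at 1887 and 2787, within 2-fold. ABCB4, an auxin transporter, was 2.59-fold higher, and ABCB11 and DTX4 were at least 5.67-fold and 2.97-fold higher. The transcription factors tied to this response in the literature showed small differences: TGA2, TGA5 and TGA6, the class II bZIP factors that drive xenobiotic genes, had log2 differences of -0.06, 0.04 and -0.17, and their partner SCL14 had 0.50. Of the 12 in that list 3 were higher, GRX480 (7225 and 34848, 4.82-fold higher), a glutaredoxin that binds TGA factors, and the salicylic acid receptors NPR4 and NPR3 (3.57-fold and 2.13-fold higher). TGA3 was 2.03-fold lower, at 1352 and 667.4.

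**Figure D2:**
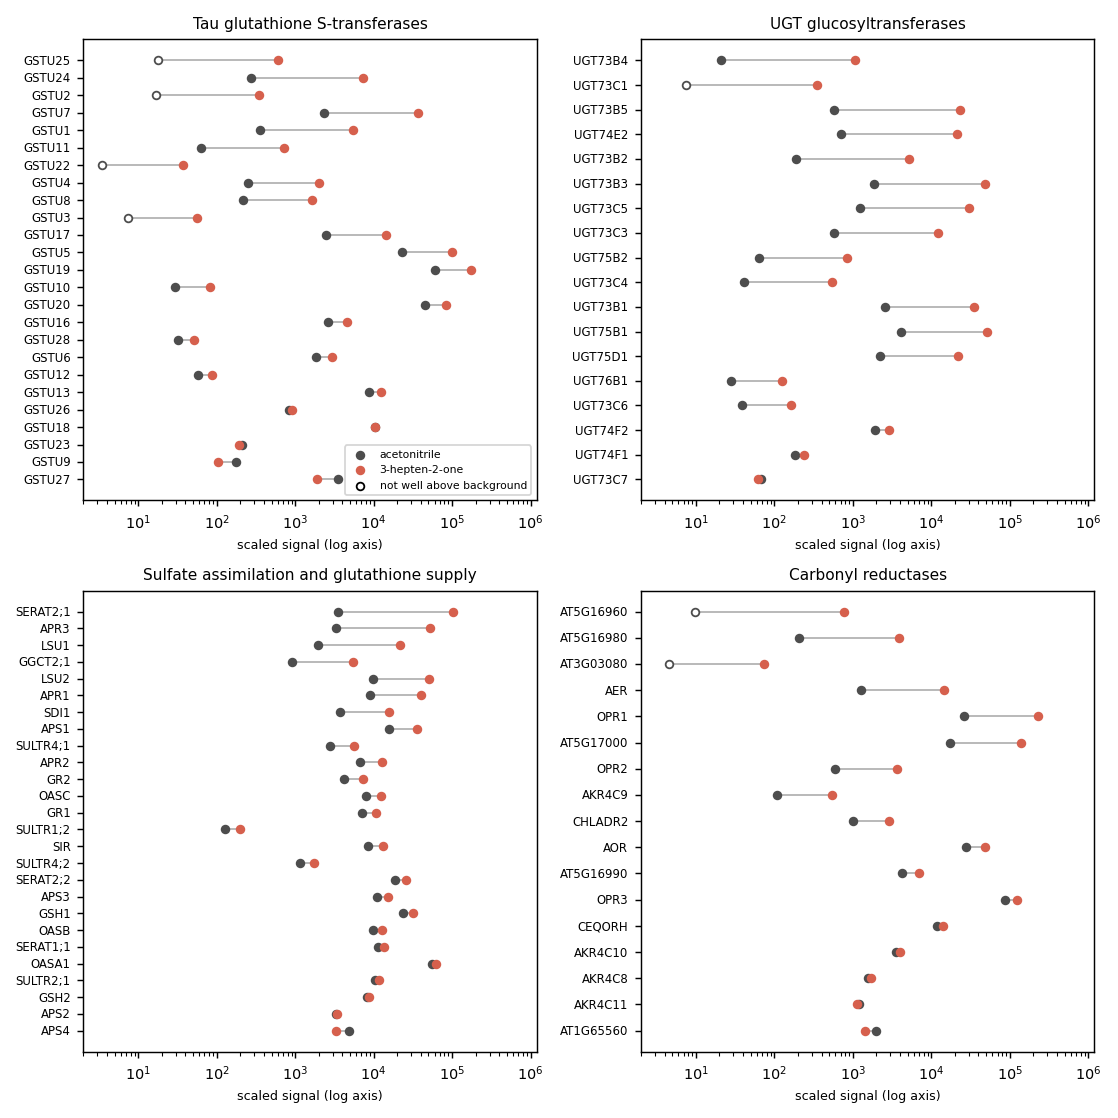
Scaled signal (log axis) in acetonitrile and after 3-hepten-2-one for the detected members of 4 detoxification lists, ordered by ratio, with open circles where a probe was not well above background. Of the glucosyltransferases only UGT74F2, UGT74F1 and UGT73C7 stay close to their control, while in the sulfate list the lower part, from APR2 down, lies within 2-fold.

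Heat shock genes gave the largest differences on the arrays. Small heat shock proteins, which hold unfolded proteins in solution, had a median log2 difference of 4.74 over 10 measured members, 8 of them higher and 2 lower. HSP17.8 had scaled signals of 401.5 and 124700, 310.6-fold higher, HSP17.6A-CI 312.4 and 80946 (259.1-fold higher), and HSP17.6B-CI 620.8 and 128703 (207.3-fold higher). The mitochondrial HSP23.5 stood at 86.8 and 17546 (202.1-fold higher). The other 8 listed members were below the detection flag in acetonitrile and all 8 were above it after the ketone: HSP17.6C reached 44158 (a bound of 2319-fold), HSP17.6A 9264 (585.8-fold), HSP17.6II 8275 (521.1-fold) and HSP17.4 6994 (442.3-fold), each fold being the least it can be. The organellar HSP23.6, HSP26.5, HSP21 and HSP22.0 were at least 157.4-fold, 39.6-fold, 21.0-fold and 15.5-fold higher. Members targeted to the cytosol, mitochondrion, plastid and endoplasmic reticulum were thus among the higher ones. The exceptions were HSP15.4, at 4818 and 1648 (2.92-fold lower), and HSP14.2, at 340.4 and 159.4 (2.14-fold lower). The class I members resemble each other closely, and cross-hybridisation between their probes was not tested.

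The heat shock factors that switch these genes on were themselves unequal. Of 17 measured factors 6 were higher and 1 lower, with a median of 0.11. HSFA2, which sustains the heat response, stood at 321.1 and 62882 (195.8-fold higher). HSFA7A was 5.80-fold higher at 477.5 and 2770, HSFA7B at least 16.9-fold, and the repressors HSFB2B, HSFB2A and HSFB1 were 7.73-fold, 7.55-fold and 3.82-fold higher. HSFA4A, linked to oxidative stress, was 3.02-fold higher at 2264 and 6832. The 4 HSFA1 genes, whose proteins are present beforehand and start the response, stayed within 2-fold, with log2 differences of -0.27 (HSFA1A), -0.25 (HSFA1B), -0.13 (HSFA1D) and -0.16 (HSFA1E). HSFA3, a later factor under DREB2A, was 2.73-fold lower, at 1277 and 468.5.

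Of 23 measured HSP70 and HSP90 chaperones 14 were higher and none lower, with a median of 1.44. The inducible cytosolic genes led: HSP70-4 stood at 1902 and 117848 (62.0-fold higher), HSP90.1 at 933.7 and 48881 (52.4-fold higher) and HSP70-8 at 406.7 and 21077 (51.8-fold higher). The constitutive HSP90.2, HSP90.3 and HSP90.4 were 6.87-fold, 4.65-fold and 5.26-fold higher from control signals of 13856, 25545 and 24086. The constitutive HSP70-1 stood at 77589 and 115018, within 2-fold by its brightest probe. Its 8 probes ranged from 0.55 to 1.67 on the log2 scale, so its call depends on the probe. By compartment, the mitochondrial MTHSC70-2 was 4.60-fold higher and the plastid CPHSC70-2 and HSP90.5 2.71-fold and 2.52-fold higher, while the endoplasmic BIP1, BIP2 and HSP90.7 had log2 differences of 0.49, 0.57 and 0.10. HSP70-14 had probes from -0.19 to 1.36, so its value depends on the probe.

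Co-chaperones and disaggregases followed the chaperones, with 15 of 22 measured members higher, none lower, and a median of 2.52. HOP3, which links HSP70 to HSP90, stood at 364.5 and 34169 (93.8-fold higher), and HSP101, the cytosolic disaggregase needed for acquired thermotolerance, at 525.3 and 47622. ROF2, BAG6, AT2G20560 and FES1A were 55.8-fold, 49.7-fold, 44.5-fold and 36.1-fold higher. MBF1C, a transcriptional coactivator of thermotolerance, went from 7415 to 196909, 26.6-fold higher. The disaggregases of mitochondria and plastids, CLPB4 and CLPB3, were 8.02-fold and 2.23-fold higher. Related copies differed in some pairs and not in others. HOP1 stood at 2777 and 2602 beside HOP2 at 3080 and 7522 (2.44-fold higher), and SGT1B at 14713 and 12423 beside SGT1A at 2205 and 10602 (4.81-fold higher). J2 and J3 had log2 differences of 1.65 and 0.95, and P23-1 and P23-2 of 0.01 and -0.28. GOLS1, a galactinol synthase under heat shock factors, stood at 7989 and 54500 (6.82-fold higher), and APX2 was at least 9.61-fold higher.

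Genes of folding in the endoplasmic reticulum did not form such a group: 1 of 17 measured was higher, 1 lower, and the median was 0.04. The higher one was ERDJ3A, a J protein of the lumen, at 63.0 and 2685 (42.6-fold higher), and the lower one P58IPK, another J protein there, at 94846 and 35141 (2.70-fold lower). The sensors and factors IRE1A, IRE1B, BZIP28 and BZIP60 had log2 differences of -0.19, -0.11, 0.95 and 0.57. All 52 subunits of the 26S proteasome lay within 2-fold, from -0.58 for PAA2 to 0.57 for RPN6, with a median of -0.09. Their regulators NAC053 and NAC078, membrane-bound factors known to drive proteasome genes, had log2 differences of 2.01 and 1.07, at 1854 and 7443 and at 5347 and 11235.

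**Figure D3:**
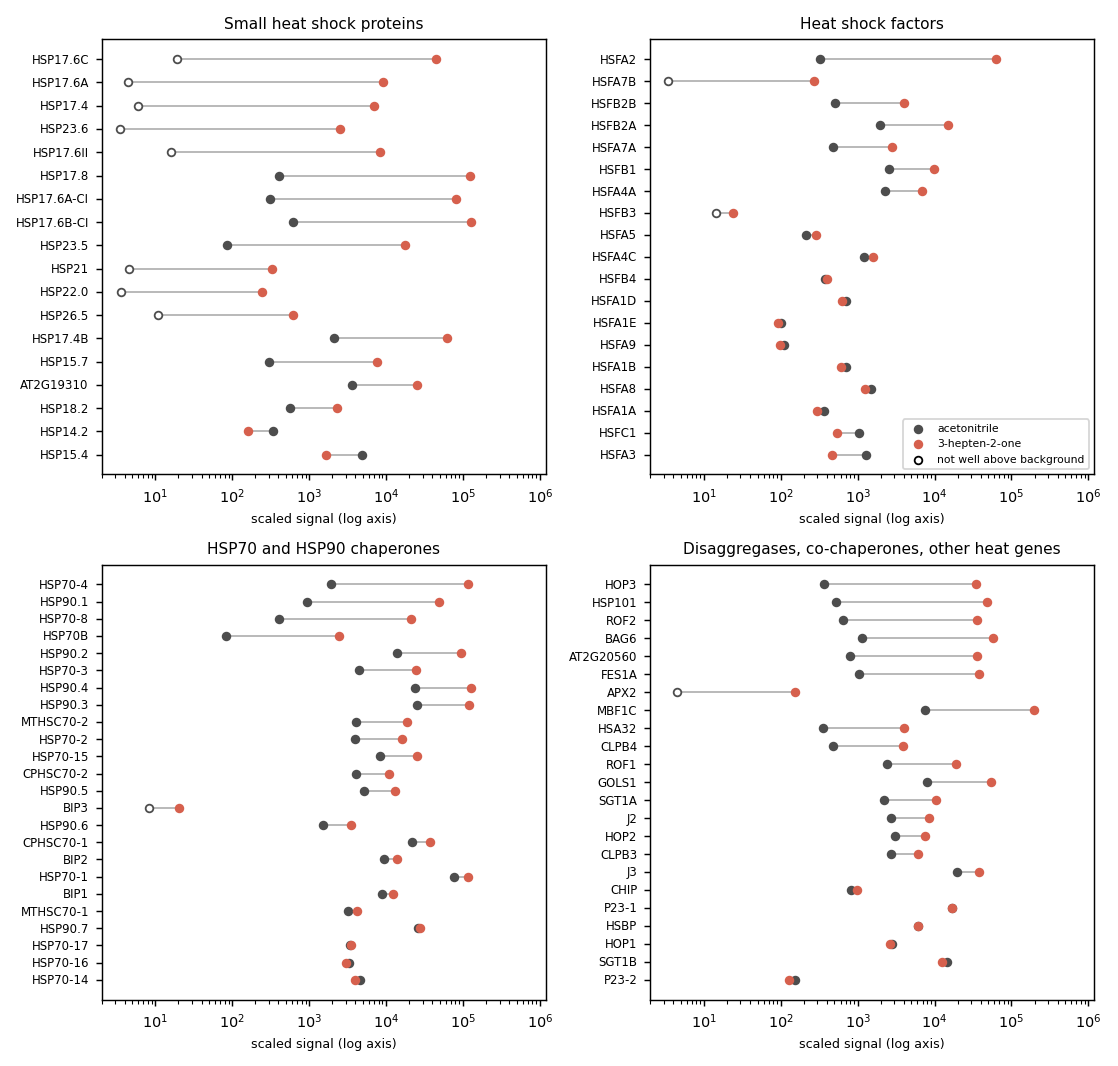
Scaled signal (log axis) in acetonitrile and after 3-hepten-2-one for detected members of 4 heat shock lists, ordered by ratio, with open circles where a probe was not well above background. Small heat shock proteins span up to 310.6-fold with both ends measured, while HSFA1 genes and the endoplasmic chaperones lie close to their control.

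Zinc finger and NAC factors of stress signalling were higher as well. Of 11 measured ZAT and AZF factors 8 were higher and none lower, with a median of 2.65. ZAT11 stood at 43.1 and 6225 (144.3-fold higher), ZAT12, a regulator of the oxidative stress response, at 5082 and 67675 (13.3-fold higher), and ZAT10 at 10281 and 64345 (6.26-fold higher). ZAT5 stood at 311.8 and 177.9, within 2-fold. Of 16 measured NAC factors 7 were higher and none lower, with a median of 0.68. They were of the ATAF clade in the main: NAC102 at 2382 and 60594 (25.4-fold higher), NAC032 at 858.6 and 20739 (24.2-fold higher), ATAF2 at 14208 and 166071 (11.7-fold higher) and ATAF1 at 2516 and 25696 (10.2-fold higher). The drought and jasmonate factors RD26, NAC019 and NAC055 had log2 differences of 0.40, 0.24 and -0.53. NAC013 and NAC017, which signal from mitochondria, had -0.13 and 0.11. Of 11 mitochondrial retrograde genes 3 were higher, namely UGT74E2, CYP81D8 and NDA1 (2.94-fold), and AOX1A, the alternative oxidase that marks this signal, stood at 6442 and 11609, within 2-fold.

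Ethylene and WRKY regulators were mixed, with more members higher than lower. Of 19 measured ethylene response factors 10 were higher and 2 lower, with a median of 1.09. With normexp background correction 8 of them were higher and 1 lower, and in the authors' processed values 9 and 2. ERF5 stood at 368.0 and 8960 (24.3-fold higher), ERF1, which joins the ethylene and jasmonate signals, at 442.1 and 4692 (10.6-fold higher), and ERF6 at 7321 and 43281 (5.91-fold higher). ERF109 was 2.69-fold lower at 7240 and 2691, and ORA59 2.03-fold lower. Among enzymes of ethylene synthesis 3 of 8 measured were higher and 1 lower: the ACC synthases ACS2, ACS6 and ACS11 had log2 differences of 1.72, 1.66 and 1.47, ACS7 was at least 14.3-fold higher, and the oxidase ACO1 was 4.02-fold lower, at 260.2 and 64.8. Of 21 WRKY factors 13 were higher and 2 lower, with a median of 1.28. WRKY30 stood at 44.3 and 1576 (35.5-fold higher), WRKY33, a regulator of camalexin synthesis, at 2453 and 30022 (12.2-fold higher), and WRKY40 at 8273 and 54717 (6.61-fold higher). WRKY54, a partner of WRKY70 in salicylic acid signalling, was 11.2-fold lower at 864.8 and 77.5, whereas WRKY70 itself stood at 19417 and 13972, within 2-fold.

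Calcium and kinase genes showed smaller groups. Of 12 calmodulin-like and touch genes 5 were higher and 2 lower, led by CML37 (1786 and 15847, 8.87-fold higher) and CML39 (480.0 and 3368, 7.02-fold higher), and with normexp background correction 3 were higher. Of 12 MAP kinases, kinase kinases and phosphatases 3 were higher and 1 lower: MKK9 stood at 7390 and 26177 (3.54-fold higher), AP2C1, a phosphatase that inactivates MPK3 and MPK6, at 2885 and 7203 (2.50-fold higher), MPK3 at 6787 and 14415 (1.09 on the log2 scale), and MPK11 at 890.0 and 354.7 (2.51-fold lower). Among redox genes the kinase OXI1, which is induced by hydrogen peroxide, stood out at 79.1 and 5704 (72.1-fold higher). It was the 1 higher gene of 13 measured, and CAT3, a catalase under clock control, was the 1 lower gene, at 227932 and 101587 (2.24-fold lower), with 9 probes from -1.43 to -1.09. Cytosolic APX1 and the superoxide dismutases CSD1 and CSD2 had log2 differences of 0.72, -0.36 and -0.38. In the iron list FER1, an iron storage ferritin, was the 1 higher of 11, at 3399 and 16143 (4.75-fold higher), while FER3 and FER4 had 0.03 and 0.04. The redox list had 7.69% higher and 7.69% lower and the iron list 9.09% higher, near the 6.51% and 4.82% of all genes.

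Clock genes differed mainly on the evening side, while 8 of 14 morning genes lay within 2-fold, 5 were higher and 1 was lower. The plant clock is a loop in which morning repressors such as CCA1 and LHY alternate with evening genes such as TOC1 and the evening complex of ELF3, ELF4 and LUX. Of 14 measured evening genes 8 were lower and 1 higher, with a median of -1.45. The 4 of them whose mean signal over both arrays lay above that of the median gene had 1 lower, none higher, and a median of -0.27. A fall lowers that mean itself, so the split cannot show whether the lower genes were dim in acetonitrile. ELF4 had scaled signals of 5876 in acetonitrile and 80.6 after 3-hepten-2-one, 72.9-fold lower, the lowest log2 difference of all genes measured on both arrays. LUX stood at 2972 and 209.6 (a log2 difference of -3.83) and ELF3 at 1781 and 479.6 (3.71-fold lower). All 3 parts of the evening complex were thus lower. PRR5 stood at 1128 and 106.7 (10.6-fold lower), BOA, a relative of LUX, at 1433 and 208.4 (6.88-fold lower), TOC1 at 1919 and 531.5 (3.61-fold lower), and GI and FKF1, which together time flowering, at 1300 and 407.0 (3.19-fold lower) and at 4198 and 1798 (2.34-fold lower). PRR3 went from 714.3 to below the detection flag, at least 51.5-fold lower, and ELF4-L1 was at least 3.04-fold lower. ZTL and LKP2, photoreceptor relatives of FKF1, had log2 differences of 0.11 and 0.14, and ELF4-L3 was 2.52-fold higher, at 258.2 and 649.9.

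Of 14 morning genes 5 were higher and 1 lower, with a median of 0.72. RVE7 stood at 531.4 and 2573 (4.84-fold higher), PRR9 at 106.4 and 312.8 (2.94-fold higher), LNK1 and LNK2, coactivators of evening genes, at 2922 and 8418 (2.88-fold higher) and at 5047 and 11118 (1.14 on the log2 scale), and CCA1 at 3356 and 7107 (1.08). LHY stood at 4076 and 5413, within 2-fold, as did RVE8, RVE4 and RVE6, the activators that work with the LNK proteins (log2 differences of 0.79, 0.59 and 0.20). RVE2 was the exception, 4.49-fold lower at 2399 and 534.5. Of 17 measured outputs 6 were lower and 1 higher. GRP7, an RNA-binding protein of a clock-driven feedback loop, went from 465529 to 12632, 36.9-fold lower, with 3 probes from -5.82 to -5.12, and its partner GRP8 from 106163 to 25550, 4.16-fold lower. The flowering genes FT and CO were 8.06-fold and 15.9-fold lower, with CO at 20.4 after the ketone, close to the detection limit. AT1G07050, a clock output in the list, was 55.1-fold lower at 1991 and 36.1, and COR27, an evening gene of cold and clock, at least 81.9-fold lower, the greatest bound on that side. BBX18 was 3.06-fold higher, and COL1 and COL2 had log2 differences of 0.08 and 0.02.

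Cold and dehydration genes stood on the lower side almost throughout, with 14 of 19 measured members lower, 1 higher, and a median of -1.40. COR413IM1, a membrane protein of the plastid envelope, had scaled signals of 17793 and 871.9, 20.4-fold lower, and COR15B, which protects plastid membranes in the cold, 31498 and 1919, 16.4-fold lower. Its tandem neighbour COR15A was 2.23-fold lower, at 22123 and 9927. KIN2 and KIN1 stood at 238660 and 64165 (3.72-fold lower) and at 116336 and 32274 (-1.85 on the log2 scale), RD29A at 6513 and 1634 (3.99-fold lower) and the dehydrins COR47, ERD10 and LTI30 were 2.64-fold, 2.42-fold and 3.92-fold lower. RAB18, another dehydrin, was 15.6-fold lower by its brightest probe, but its 4 probes ranged from -3.96 to 0.11, so its call depends on the probe. RD20, a caleosin, was the 1 higher member, at 7811 and 24176 (a log2 difference of 1.63). KIN1 and KIN2, like COR413IM1 and COR413IM2, are near copies whose probes may share signal. Upstream, the DREB and CBF factors had 4 lower members and 1 higher among 8 measured, with a median of -1.19: DDF2 stood at 740.6 and 53.8 (13.8-fold lower), DDF1 at 2552 and 328.6 (7.77-fold lower), CBF4 at 134.7 and 22.6 (5.95-fold lower) and CBF3 at 200.4 and 72.0 (2.78-fold lower). CBF1 was at least 10.4-fold lower. With normexp background correction 2 of these factors were lower and the median was -0.77, and in the authors' processed values 5 were lower. The higher one was DREB2A, a factor of heat and drought, at 751.9 and 6347 (8.44-fold higher).

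The other volatiles were set against the same acetonitrile array, so the 3 sets of values share their control and are not independent. ELF4, LUX and PRR5 had log2 differences of -6.19, -3.83 and -3.40 after 3-hepten-2-one and of 0.37, -0.07 and 0.05 after (E)-2-pentenal, whose array lay on the same slide. GRP7 had -5.20 after the ketone and 0.03 after (E)-2-pentenal, and COR15B -4.04 and 0.32. Over the 14 evening genes the medians were -1.45 and -0.03, over the 19 cold genes -1.40 and 0.01. Among heat shock genes HSP17.8 had 8.28 after the ketone and 8.41 after (E)-2-pentenal, and HSFA2 7.61 and 7.71. After crotonaldehyde the evening genes had a median of 0.33 and the cold genes 0.39, but that array was on another slide, scanned separately, so slide and treatment cannot be told apart. No replicate shows how far such genes vary between pools of untreated seedlings. The part of the hour of harvest in these values was not tested.

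**Figure D4:**
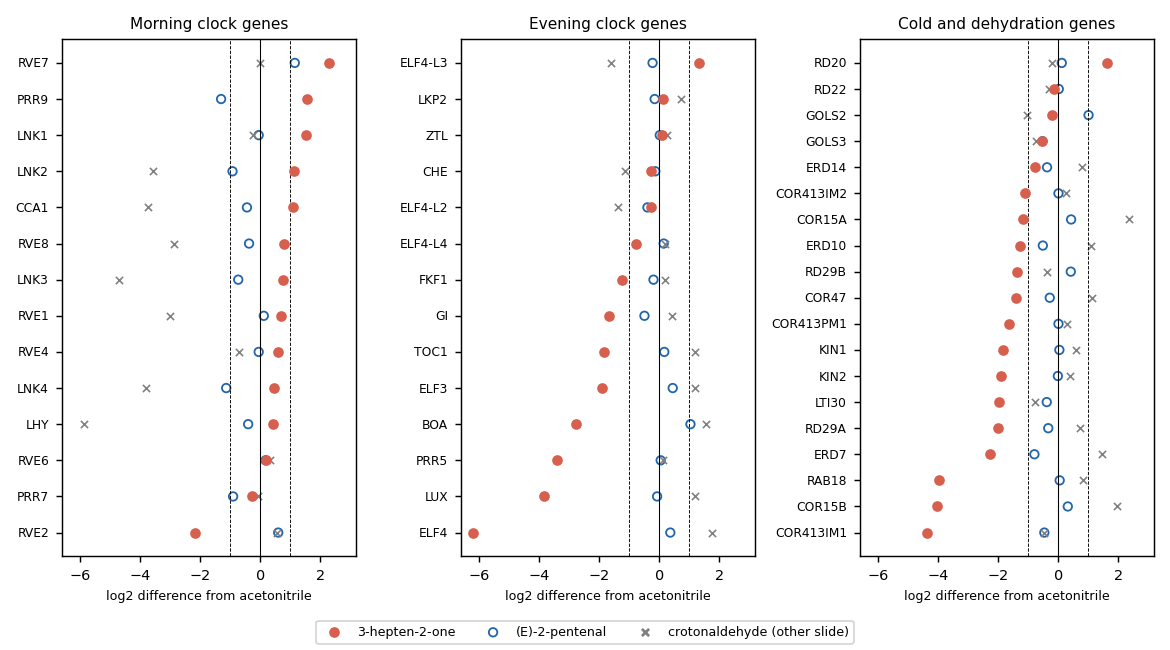
Log2 difference from acetonitrile of each measured morning clock, evening clock and cold gene after 3-hepten-2-one (filled), (E)-2-pentenal (open) and crotonaldehyde (cross), with dashed lines at 2-fold. The 3 volatiles share 1 acetonitrile array; 8 of 14 evening and 14 of 19 cold genes lie left of the lower line after 3-hepten-2-one.

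Abscisic acid genes, which in part control the cold list, went both ways, with 7 of 27 measured higher, 4 lower, and a median of 0.03. NCED3, the rate-limiting enzyme of its synthesis, stood at 127.4 and 286.1 (2.24-fold higher), and the hydroxylases CYP707A3 and CYP707A4, which break it down, were 3.24-fold and 5.77-fold higher. Among the phosphatases that block its signal HAI1, ABI1 and ABI2 were 4.60-fold, 2.46-fold and 2.09-fold higher, while PP2CA was 2.15-fold lower, at 10231 and 4750. ABF3, a bZIP factor of the response, was 2.49-fold higher and its relative ABF1 3.79-fold lower, at 1665 and 439.0. The receptor PYL6 was 15.1-fold lower, at 267.1 and 17.7, the latter close to the detection limit, and ABI5 was at least 5.40-fold lower. Synthesis, breakdown and signalling each had members past 2-fold, in no common direction.

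Jasmonate, a hormone of wounding and defence, was covered by a pair of lists. Of 17 genes of its synthesis and turnover 4 were higher and 1 lower, with a median of 0.48: AOC1 stood at 16834 and 55875 (3.32-fold higher), AOS at 50430 and 123986 (2.46-fold higher), JAR1, which makes the active isoleucine conjugate, at 4273 and 9263 (2.17-fold higher), and JMT at 1185 and 2511 (1.08 on the log2 scale). CYP94C1, which inactivates the conjugate, was 5.73-fold lower, at 12499 and 2183. In the authors' processed values 2 were higher and 1 lower in that list, and 0 higher and 3 lower in the response list. In the response list 0 of 19 were higher and 2 lower with the 75th percentile scaling, JAZ7 (7411 and 3222, -1.20 on the log2 scale) and THI2.1 (5185 and 1506, 3.44-fold lower), while the markers VSP1 and VSP2 stood at 255660 and 409610 and at 144793 and 243807, within 2-fold. Of 11 measured salicylic acid genes 1 was higher and 3 lower: CBP60G stood at 954.4 and 3215 (3.37-fold higher), its relative SARD1 at 1068 and 367.1 (2.91-fold lower), and NIMIN1 and NIMIN2 were 3.11-fold and 2.99-fold lower. ICS1, the main enzyme of its synthesis, stood at 411.4 and 664.6. In the salicylic acid list 9.09% were higher and 27.3% lower, against 6.51% and 4.82% of all genes. In the list for indolic defence compounds CYP81F2, which modifies indole glucosinolates, was 5.85-fold higher at 430.4 and 2519, and GGP1, a peptidase that acts on glutathione conjugates there, 2.43-fold higher at 49548 and 120450, 2 of 11 measured.

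Growth genes were led by the SAUR family, small auxin-induced proteins of cell elongation, of which 8 of 9 measured were lower and none higher, with a median of -2.79. SAUR62 stood at 691.9 and 79.5 (8.70-fold lower), SAUR63 at 4888 and 637.6 (7.67-fold lower), and SAUR19 at 965.1 and 162.4 (5.94-fold lower). SAUR63, SAUR64 and SAUR65 lie next to each other on chromosome 1 and have similar sequences, so their values may not be independent. SAUR9 stood at 375.4 and 429.9, within 2-fold. The other early auxin genes were divided, with 4 of 17 higher and 2 lower: IAA17, GH3.5, GH3.6 and GH3.3 had log2 differences of 1.91, 1.57, 1.44 and 1.08, and IAA29 and IAA6 of -2.05 and -1.99. Of 12 light-signalling factors the growth antagonists PAR1 and PAR2 were lower, at 5030 and 653.6 (7.70-fold) and at 1986 and 606.6 (3.27-fold), and PIF4 stood at 15733 and 15571. Among 19 cell wall genes XTH18, XTH23, XTH20 and XTH17 were 2.79-fold, 2.68-fold, 2.53-fold and 2.14-fold higher, and the expansins EXPA11 and EXPA8 had log2 differences of -2.18 and -1.63.

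Photosynthesis genes stayed near the control: 1 of 24 was higher and none lower, with a median of 0.14. The higher one was ELIP1, a protein of light stress, at 373.1 and 2997 (8.03-fold higher). The antenna and Rubisco genes ranged from -0.16 for LHCB4.3 to 0.49 for LHCB2.1. Of 14 measured phenylpropanoid and flavonoid genes 7 were higher and 1 lower, with a median of 1.00. F3H, CHS, DFR, LDOX and CHI, steps on the way to anthocyanins, were 3.72-fold, 3.17-fold, 3.19-fold, 2.92-fold and 2.04-fold higher, PAL1 at the entry 2.29-fold and PAP1, their MYB activator, 2.34-fold (1232 and 2878). FLS1, which leads to flavonols instead, stood at 872.2 and 805.3, and its activator MYB111 at 81.1 and 33.2 (2.45-fold lower). The 5 nitrate genes measured all lay within 2-fold. Of 3 sugar starvation genes ASN1 was 2.07-fold higher and DIN10 2.19-fold lower. All 11 reference genes lay within 2-fold, with a median of -0.08 and extremes of -0.65 (ACT8) and 0.87 (GAPC1), while UBQ10 had 0.84 and PP2AA3 0.04.

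**Figure D5:**
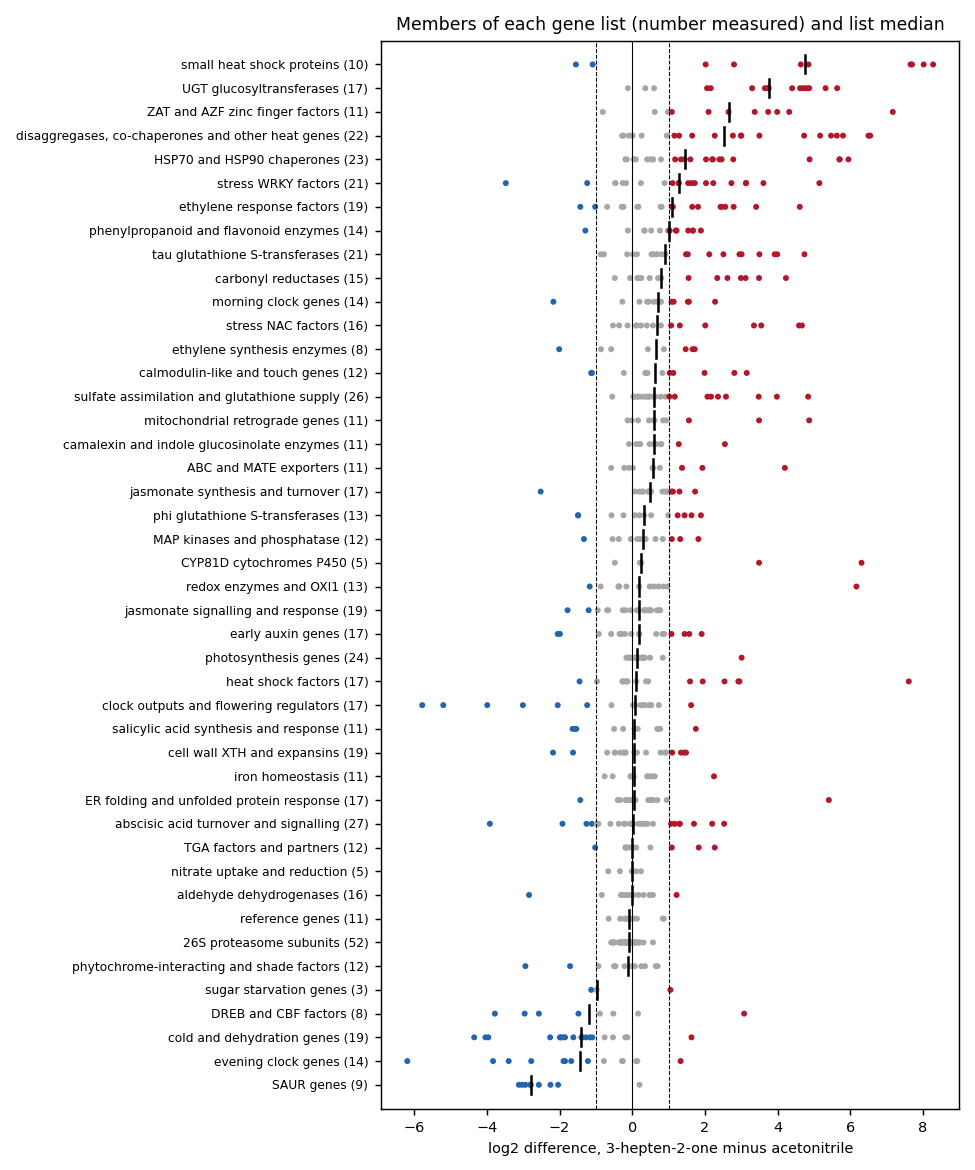
Log2 difference (3-hepten-2-one minus acetonitrile) of every measured member of the 44 gene lists, 1 row per list ordered by its median (black bar), with red and blue points past 2-fold and grey points within it. Medians run from 4.74 for small heat shock proteins to -2.79 for SAUR genes, and the proteasome and reference rows lie wholly within the lines.

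The 15 highest and the 15 lowest genes were mostly covered above. Among the highest, DLAH (AT1G30370), a lipase of the DAD1-like family, stood at 29.2 and 2062 (70.5-fold higher), and AT5G54165, AT1G71520 and AT4G08555 were 123.6-fold, 76.2-fold and 66.5-fold higher. Among the lowest, JMJD5 (AT3G20810), a jumonji protein known as a clock component, stood at 4126 and 237.8 (a log2 difference of -4.12). AACT1 (AT5G61160), an acyltransferase, stood at 1302 and 63.3 (20.6-fold lower). AT5G23240, AT1G49230 and AT5G62360 were 47.2-fold, 31.8-fold and 20.2-fold lower, and AT1G11210, AT5G57760 and AT4G12510 20.2-fold, 18.4-fold and 17.9-fold lower. Of the greatest bounds not yet named, AT1G07160 reached 1089, at least 68.9-fold higher, and AT3G51400, SVL3 (AT3G20520), AT1G29080 and AT2G41930 were at least 19.9-fold, 18.7-fold, 18.3-fold and 17.0-fold lower.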

How the data were processed

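Labelled RNA of each sample was hybridised to a 1-colour Agilent array. The intensity values used are the processed spot signals as deposited, background-subtracted within each array per the file headers, and the deposited flags (scores of 0 or 1) mark outlier, saturated and well-above-background spots. Agilent Feature Extraction 10.10.1.1 is named per the file headers and 9.1 per the submitters' processing notes. The authors' deposited value table equalled the processed signal times a constant per array, 1.3801 for acetonitrile and 1.3835 for 3-hepten-2-one, set in a way that the labels and headers do not give.

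Control and outlier spots (5 and 16) were left out, and 34476 of 43803 spots matched 1 locus through the RefSeq gene table, giving 25418 loci. Signals were divided by the 75th percentile of their array, taken to log2, averaged over spots of a probe, and each gene was given by its brightest probe. A probe counted as well above background when a share of at least 0.5 of its spots was. For a gene seen on 1 array only, the bound is its signal over the larger of its dim value and the other array's detection limit, the smallest signal there with that flag. Named genes were the 15 highest, the 15 lowest, the 6 greatest bounds each way and members of the lists, which hold 745 loci. The members and lists were chosen with earlier results of these data known. Of the list names 56 are not in the RefSeq table and come from the lists. Its assembly differs in name from the build in the headers, so it gave names and neighbours only.

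There was 1 array per group, so no test was run, and the number of arrays limits the precision. The scripts were tested on simulated data. Alternatives were normexp background correction (offset 50), quantile, median and cyclic loess scaling, the authors' table, no filter on dim probes, genes measured on all 4 arrays, genes above the median signal, the mean over probes, and rules of 1.5-fold and 4-fold. Python 3.11.15 with numpy 2.4.6, pandas 2.3.3 and matplotlib 3.10.9, and R 4.3.3 with limma 3.58.1, were used. A planned motif search in promoters was not run.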

Additional observations from a re-analysis of the deposited data

Results flagged for a closer look

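Probes with no matched locus were outside the comparison of genes, and some of them differed between the arrays. Of 4299 such probes well above background on both arrays 240 were at least 2-fold higher after 3-hepten-2-one (5.58%) and 204 at least 2-fold lower (4.75%). Among the 19299 genes the shares were 6.51% and 4.82%, so those of the unmatched probes were no higher. Probe A_84_P819099 had scaled signals of 60.2 in acetonitrile and 1428 after the ketone, 23.7-fold higher. Probe A_84_P761618 stood at 30.6 and 379.5, 12.4-fold higher. On the other side A_84_P862707 stood at 13423 and 183.8, a log2 difference of -6.19, and A_84_P852577 at 3270 and 46.7, a log2 difference of -6.13. The genes behind these probes are not named here.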

How the results depend on the processing

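No paired analysis was possible because there was 1 array per group, and no library could be left out for the same reason. Against 1256 genes higher and 931 lower, normexp correction gave 553 lower, no filter on dim probes gave 1919 higher and 1409 lower over 25418 genes, and genes above the median signal gave 608 higher and 309 lower over 9649 genes, fewer by construction. A rule of 1.5-fold gave 2328 higher and 2475 lower, and a rule of 4-fold 412 and 168. The authors' table gave 1069 and 1230, with 46.5% higher. The median of the DREB and CBF list was 3.08 among genes above the median signal, where DREB2A alone was left, against -1.19. Several lists had fewer calls there, with fewer members by construction. Evening clock genes had 1 lower of 4, SAUR genes 2 of 2, WRKY factors 7 higher of 10 and glucosyltransferases 8 of 9. The NAC median was 2.01 over 9. The signal in that setting was the mean over both arrays, so a gene with a large drop could leave through the drop itself. The lost lower calls therefore do not show that these genes were dim in acetonitrile. The 277 named genes past 2-fold kept their direction under each alternative that held them. Of these 256 were past 2-fold under normexp, 261 in the authors' table and 270 to 275 under the other scalings. They were picked as past 2-fold on these same arrays, and settings that only drop genes reuse their values. The largest shift of the all-gene median under another scaling was -0.12. The kept directions were thus largely fixed in advance and do not stand in for a replicate. Over the 5 other scalings 33 lists kept the sign of their median and 11 did not, the latter with medians of at most 0.21 in size. Dim genes crossed 2-fold more often: among the 3860 genes with the lowest signal, 16.3 to 226.4, 8.37% were higher and 8.89% lower, against 7.62% and 3.45% among the 3860 brightest.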

Other observations

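Some genes outside the lists, chosen after their values were seen, were far above the control after 3-hepten-2-one. BSMT1 (AT3G11480), a methyltransferase that makes methyl salicylate and methyl benzoate, had scaled signals of 26.2 in acetonitrile and 1189 after the ketone, 45.4-fold higher. ELI3-2 (AT4G37990), of the cinnamyl alcohol dehydrogenase family, stood at 35.0 and 1507 (43.1-fold higher), and its log2 differences after (E)-2-pentenal and crotonaldehyde, against the same control, were -0.29 and -0.16. RNS1 (AT2G02990), a secreted ribonuclease, stood at 28.1 and 876.7 (31.2-fold higher), with -0.47 and 2.35 after the aldehydes. All 3 had control signals near the lower end of the measured range, so their folds are imprecise.

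Genes past 2-fold were also counted by their neighbours on the chromosome. Of 14480 neighbouring pairs with both genes measured 139 were both higher (0.96%), 61 both lower (0.421%) and 62 split, and 18 runs of 3 or more genes were higher and 8 lower. Of all genes 6.51% were higher and 4.82% lower, and whether the pairs and runs exceed what these shares give was not tested. Beside the glucosyltransferase clusters, CYP89A7, CYP89A6 and CYP89A5 on chromosome 1, cytochromes P450, had log2 differences of 2.22, 3.28 and 3.51. ESE1, TDR1 and ERF1 on chromosome 3, all ethylene response factors, had 3.54, 5.46 and 3.41. The lipid transfer protein genes LTP4 and LTP3 on chromosome 5 had 3.58 and 1.57. On the lower side SAUR19, SAUR20 and AT5G18030 had -2.57, -2.38 and -2.40, and PCC1, AT3G22235 and AT3G22240 on chromosome 3 had -2.03, -2.30 and -2.08. Many of these neighbours are duplicated genes, and the part of probes shared between copies was not tested.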
